A study of Rattus norvegicus with 28 samples.

Results

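Transcripts of genes that drive cell division and copy DNA were measured in rat hippocampus 24 h after experimental traumatic brain injury. The group comprised 37 genes named by symbol, and its members were the array probes whose accession belonged to one of those symbols in the RefSeq rat gene table. Of the 15637 genes named on the array, 33 were members with a matched probe, and 31 of those were tested, because some group of rats had all its arrays above background for the gene. Top2a, Bub1b, Cenpe and Mcm5 had no matched probe. Cdkn3 and Rrm1 had matched probes that were above background on no array, so nothing is reported on their change.

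Whole hippocampus came from 14 adult male Sprague-Dawley rats, each with its own 1-colour Agilent gene expression array. The study asked how injury changed hippocampal transcripts and whether antidepressants given after injury changed them again. The Sham group (2 rats) was anesthetized and prepared without injury. The TBI group (3 rats) received severe parasagittal fluid-percussion injury, in which a pressure pulse is delivered to the brain surface. The TBI+Imipramine, TBI+Prozac and TBI+Zoloft groups (3 rats each) received the same injury and, 1 h later, the tricyclic antidepressant imipramine or the serotonin reuptake inhibitors fluoxetine (Prozac) or sertraline (Zoloft). Each array held the RNA of 1 rat, with nothing pooled, so that p-values measure the spread between these rats.

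Cell division is run by cyclins, which bind and switch on cyclin-dependent kinases (Cdks) in a fixed order. D cyclins act in G1, cyclin E and Cdk2 at the start of DNA synthesis, cyclin A in S phase and cyclin B with Cdk1 in mitosis. Licensed origins are opened by the MCM helicase, PCNA clamps the polymerases to DNA, and ribonucleotide reductase and the thymidylate enzymes supply nucleotides. The spindle checkpoint holds chromosomes until the anaphase-promoting complex releases them. Most neurons of the adult hippocampus have left the cell cycle. Dividing cells there are few and are known to include neural precursors of the dentate gyrus, oligodendrocyte precursors and, after injury, microglia, astrocytes, endothelial cells and entering leukocytes.

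Log2 levels are the signal of a gene's brightest kept probe relative to the 75th percentile of probes above background on the same array, so that a level of 0 is the brightness of that percentile. Levels of different genes come from different probes and were not set against each other. A difference is that between 2 group means of log2 levels, given with its standard error (SE) from a limma fit of all 14 arrays, and a gene passed a comparison at a Benjamini-Hochberg adjusted p under 0.05 over all 17322 kept probes. In whole tissue, fewer cells of a type and less RNA per cell cannot be told apart.

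Between 14676 and 18196 of the 30367 probes were above background on an array, and the number of arrays limits the precision of the differences. Both Sham arrays shared 1 slide, scanned on a different day from the other 2 slides, so that slide and injury cannot be told apart in any comparison with Sham. The 3 TBI arrays shared a slide with TBI+Prozac replicate 1, and the other 8 drug arrays shared the remaining slide. Neuronal markers were read on all arrays. The synaptic gene Snap25 had log2 levels between 2.39 and 2.90 on all 14 arrays. Dcx and Prox1, markers of young and mature granule neurons, had probes but did not pass the background filter. Snap25 marks neurons and not a brain region, so the hippocampal label was not tested.

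Of the 33 members with a probe, 22 and 26 were above background on the 2 Sham arrays. The corresponding numbers were 28, 31 and 30 in TBI, 31 on each of the 3 TBI+Imipramine and 3 TBI+Prozac arrays, and 29, 28 and 26 in TBI+Zoloft. Mcm6, Tyms, Ccnb1, Ccnb2 and Aurkb were above background on neither Sham array, and Ccna2, Ube2c, Kif20a and Mki67 on 1 of the 2. For the former 5 genes a level in Sham is a bound and not a measurement. All of the genes just named passed the background filter through groups of injured rats alone, so their calls against Sham are a description. The remaining 22 tested members were above background on all 14 arrays.

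**Figure D1:**
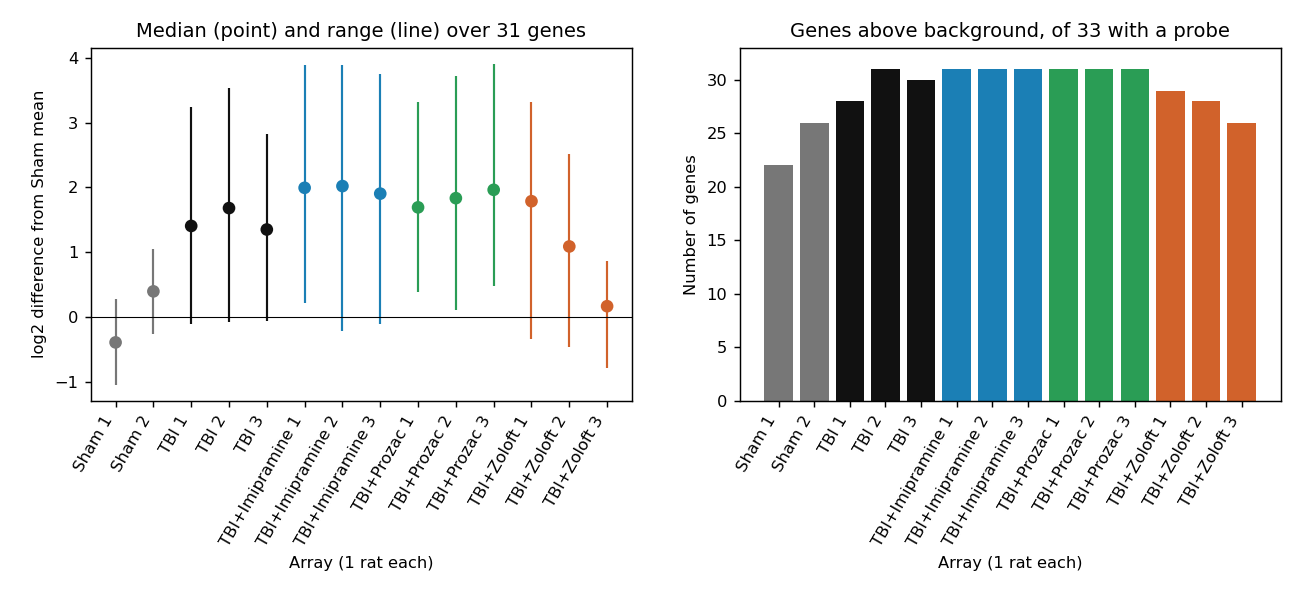
Left, the median (point) and the range (line) over the 31 tested genes of the log2 difference from the mean of the 2 Sham arrays, for each array. Right, the number of the 33 genes with a probe that were above background on each array, with bars starting at 0. TBI+Zoloft replicate 3 sits at a median of 0.165, beside Sham, while the other 11 injured arrays lie between 1.09 and 2.02.

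The 250 bases before the annotated start of 4 members are shown because these genes stand for the cyclin-Cdk, proliferation and replication roles described below and shared the rise after injury. The sequences are from RefSeq (build GRCr8) in the direction of the gene. Capitals mark letters searched on both strands, namely CCAAT (the CCAAT box, ATTGG on the other strand), TTTGAA (a core of the cell cycle homology region, TTCAAA on the other strand) and TTCCCGC or TTGGCGC (E2F sites, GCGGGAA or GCGCCAA on the other strand). Cdk1 lies at chr20:19265043-19265292 (plus strand), Mki67 at chr1:199952594-199952843 (minus strand), Ccnb1 at chr2:33655226-33655475 (minus strand) and Mcm6 at chr13:42404353-42404602 (minus strand).
Cdk1: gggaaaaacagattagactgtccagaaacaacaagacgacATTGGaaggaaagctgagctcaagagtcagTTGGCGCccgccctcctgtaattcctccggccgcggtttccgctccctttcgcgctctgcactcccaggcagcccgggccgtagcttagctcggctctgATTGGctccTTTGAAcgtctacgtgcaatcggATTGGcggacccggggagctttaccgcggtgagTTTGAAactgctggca
Mki67: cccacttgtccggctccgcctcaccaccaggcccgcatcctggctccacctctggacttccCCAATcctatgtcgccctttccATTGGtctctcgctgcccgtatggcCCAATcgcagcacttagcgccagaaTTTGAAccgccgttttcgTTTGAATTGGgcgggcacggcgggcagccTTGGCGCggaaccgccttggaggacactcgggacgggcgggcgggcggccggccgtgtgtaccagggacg
Ccnb1: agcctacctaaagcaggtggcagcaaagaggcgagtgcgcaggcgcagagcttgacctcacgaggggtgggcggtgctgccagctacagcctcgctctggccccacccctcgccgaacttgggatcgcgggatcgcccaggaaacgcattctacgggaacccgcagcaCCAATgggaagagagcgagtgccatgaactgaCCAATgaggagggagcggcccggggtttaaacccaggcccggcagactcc
Mcm6: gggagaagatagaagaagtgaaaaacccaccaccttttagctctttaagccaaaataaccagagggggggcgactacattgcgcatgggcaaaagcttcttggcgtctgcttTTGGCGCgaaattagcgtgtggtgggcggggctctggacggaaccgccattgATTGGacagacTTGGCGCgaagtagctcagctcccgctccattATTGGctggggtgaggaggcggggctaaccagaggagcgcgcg

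Cdk1 and Mki67 held all 3 kinds of motif, with 3 CCAAT boxes, 2 TTTGAA words and 1 E2F word in the former and 4, 2 and 1 in the latter, where the second TTTGAA shares a base with a CCAAT box. Ccnb1 held 2 CCAAT boxes and none of the other words. Mcm6 held 2 CCAAT boxes and 2 E2F words. A promoter window (300 bases, from 250 before to 50 after the start) was given for 30 of the 37 members. The CCAAT box was found in 23 of these 30 windows (76.7%), against 37.7% of 27457 rat promoters of the same length. TTTGAA was found in 13 member windows (43.3%) against 18.1% of all, both words together in 11 (36.7%) against 7.25%, and an E2F word in 9 (30.0%) against 6.67%. These matches describe letters in the window and were not tested as binding sites.

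In TBI, 21 of the 31 tested members rose against Sham and none fell (8.3% of all kept probes rose and 8.32% fell). The median difference over the 31 was 1.41 on the log2 scale, from -0.09 for Ccnd2 to 3.21 for Cdk1, beside a median of 0.00 over all probes. With the 5 genes that were dim in Sham set at their lower bound, the median was 1.40. Among the 22 members above background on every array, which the filter could not have chosen through the injured groups, 14 rose, beside 7.79% of the 14129 probes of that kind. Levels in the 3 TBI rats lay above those of both Sham rats for 28 of 31 members (20.9% of all probes). The count rested on the Sham replicate 1 array: without it, 2 members passed (Ccnb2 and Pcna) where 7.33% of probes passed in either direction, and the median difference was 1.17. Without Sham replicate 2 the median was 1.83.

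Members also passed against Sham in rats given imipramine or Prozac. In TBI+Imipramine 30 of 31 rose (19.8% of all probes rose) with a median difference of 1.93, and in 30 all treated rats lay above both Sham rats (42% of all probes). In TBI+Prozac 28 of 31 rose (11.7% of all probes) with a median of 1.75, and 30 did not overlap Sham (36.8%). In TBI+Zoloft 2 of 31 rose, Pcna and Rrm2 (4.16% of all probes), with a median of 0.90. There 21 members had an unadjusted p under 0.05, all higher but Ccnd2 (12.3% of all probes were higher at that threshold), 6 lay wholly above Sham (19.9%) and Ccnd2 wholly below (18.5%). No member fell in any of these. Without Sham replicate 1 the counts for imipramine and Prozac were 20 (11.8% of probes passed in either direction) and 7 (4.11%), and without TBI+Zoloft replicate 3 that for Zoloft was 21. Among the 22 members above background on every array, 21 rose in TBI+Imipramine (19.5% of the probes of that kind) and 19 in TBI+Prozac (11.2%). In TBI+Zoloft 2 of them rose (3.7%). Aurkb, Ccnb2 and Tyms passed the background filter through TBI+Imipramine and TBI+Prozac alone, so their calls there are a description. The same holds for Mcm6, Ccnb1, Ccna2, Ube2c, Kif20a and Mki67, which passed it through injured groups alone. All 4 comparisons share the 2 Sham arrays. By gene, 2 members passed in all 4 comparisons with Sham, 19 in 3, 7 in 2, 2 in 1 and 1 (Ccnd2) in none. All probes together lay 0.18 higher in TBI+Imipramine than in Sham, 0.14 higher in TBI+Prozac and 0.00 higher in TBI+Zoloft, and the differences given here include that shift.

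**Figure D2:**
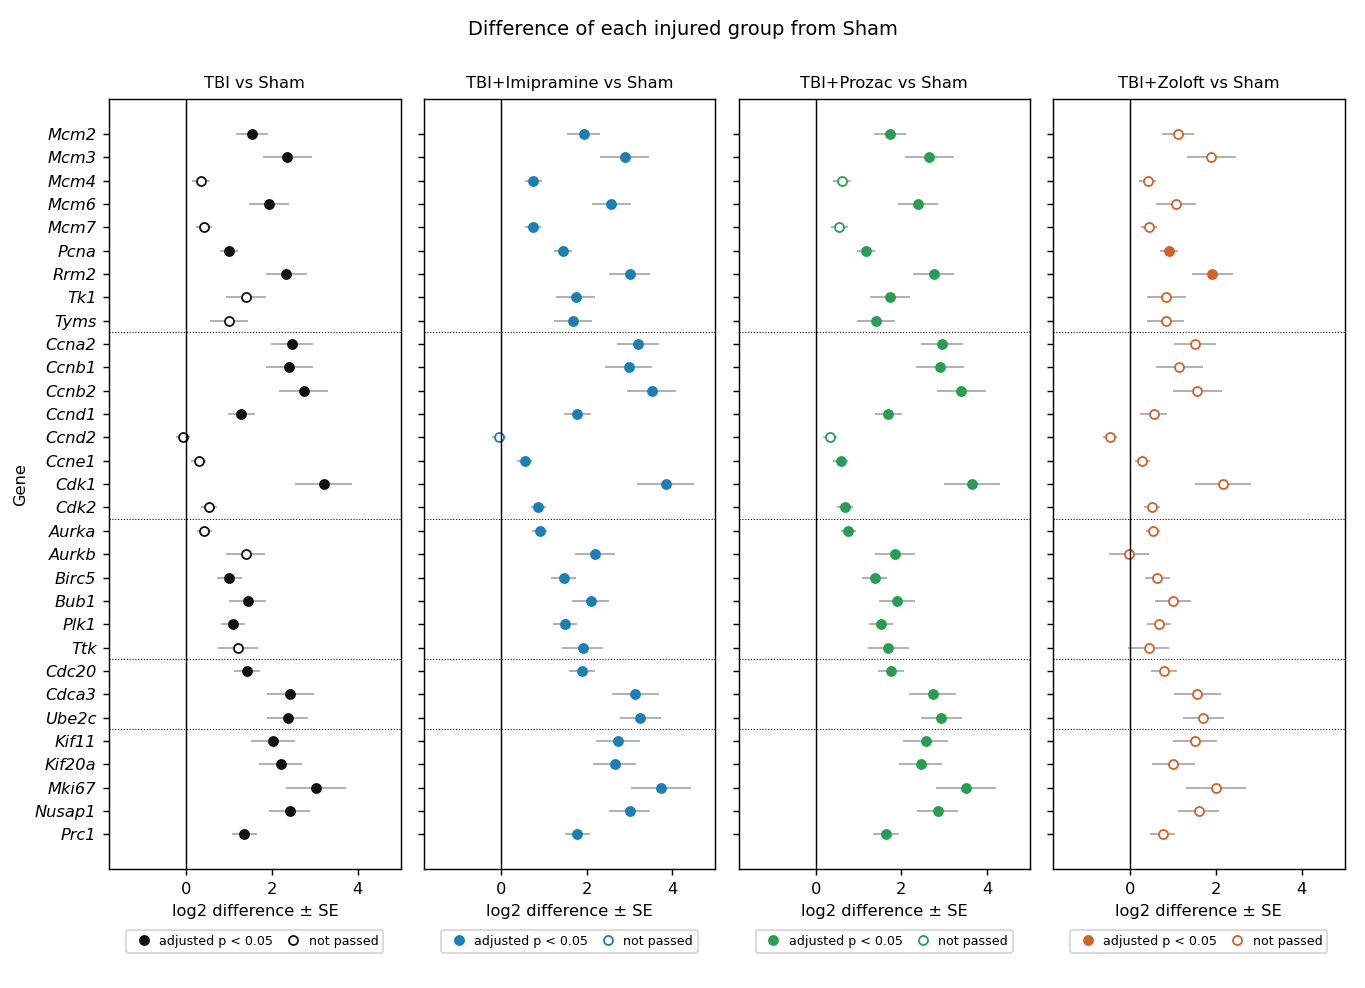
Log2 difference from Sham (x axis, points, with lines of 1 SE to each side) of the 31 tested genes (y axis, grouped by role with dotted lines) in the 4 injured groups. Filled points passed at adjusted p under 0.05. Filled points number 21 in TBI, 30 in TBI+Imipramine, 28 in TBI+Prozac and 2 in TBI+Zoloft.

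Of the genes of S phase and replication, 5 of 9 tested rose in TBI, 9 in TBI+Imipramine, 7 in TBI+Prozac and 2 in TBI+Zoloft. The MCM helicase unwinds DNA at the fork. Mcm2 had log2 levels of -3.81 and -2.87 in Sham, -1.93, -1.66 and -1.82 in TBI, -1.45, -1.29 and -1.51 in TBI+Imipramine, -1.65, -1.77 and -1.38 in TBI+Prozac and -1.56, -1.97 and -3.14 in TBI+Zoloft. Its difference in TBI was 1.54 ± 0.38 (adjusted p = 0.0164), and TBI+Zoloft replicate 3 lay between the Sham rats. Mcm3 levels were -4.92 and -2.83 in Sham, -1.43, -1.56 and -1.55 in TBI, -1.17, -0.85 and -0.92 in TBI+Imipramine, -1.39, -1.36 and -0.90 in TBI+Prozac and -1.21, -1.54 and -3.20 in TBI+Zoloft. Every injured rat except TBI+Zoloft replicate 3 exceeded both Sham rats for Mcm3, with a difference in TBI of 2.36 ± 0.57 (adjusted p = 0.0157). For Mcm6 the arrays read -6.57 and -5.63 in Sham, -4.01, -4.16 and -4.34 in TBI, -3.54, -3.38 and -3.66 in TBI+Imipramine, -3.64, -3.99 and -3.52 in TBI+Prozac and -4.27, -4.57 and -6.27 in TBI+Zoloft. Since neither Sham array was above background for Mcm6, its rise was at least 3.48-fold in TBI (adjusted p = 0.0145), 5.42-fold in TBI+Imipramine and 4.76-fold in TBI+Prozac. Mcm6 passed the background filter through injured groups alone, so these rises are a description.

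Mcm4 and Mcm7, subunits of the same helicase, had small differences. Mcm4 read -0.72 and -0.08 in Sham, -0.16, 0.01 and -0.03 in TBI, 0.34, 0.49 and 0.24 in TBI+Imipramine, 0.24, 0.01 and 0.40 in TBI+Prozac and 0.27, -0.02 and -0.23 in TBI+Zoloft. Mcm7 read -0.30 and -0.25 in Sham, -0.01, 0.26 and 0.16 in TBI, 0.44, 0.44 and 0.56 in TBI+Imipramine, 0.33, 0.13 and 0.39 in TBI+Prozac and 0.48, 0.28 and -0.28 in TBI+Zoloft. Differences in TBI were 0.34 ± 0.20 for Mcm4 (adjusted p = 0.277) and 0.41 ± 0.19 for Mcm7 (adjusted p = 0.169), and both passed in TBI+Imipramine at 0.76 ± 0.20 and 0.75 ± 0.19. The probes for Mcm4 disagreed: a second, dimmer probe gave -2.30 in TBI (adjusted p = 0.0802) where the one used gave 0.34, and the mean of both gave -0.98 (adjusted p = 0.154). In TBI+Imipramine, where the probe used passed against Sham, the second probe gave 0.22 and did not pass (adjusted p = 0.873).

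Pcna, the sliding clamp of the replication fork, was one of 2 members that rose in all 4 injured groups. Its log2 levels were -0.21 and -0.71 in Sham, 0.41, 0.58 and 0.63 in TBI, 0.88, 1.01 and 1.03 in TBI+Imipramine, 0.57, 0.64 and 0.95 in TBI+Prozac and 0.69, 0.59 and 0.03 in TBI+Zoloft. All 12 injured rats lay above both Sham rats. Differences from Sham were 1.0 ± 0.21 in TBI (adjusted p = 0.00757), 1.44 ± 0.21 in TBI+Imipramine (0.000787), 1.18 ± 0.21 in TBI+Prozac (0.00458) and 0.90 ± 0.21 in TBI+Zoloft (0.0275). Rrm2, the small subunit of ribonucleotide reductase, was the other. Its levels were -3.45 and -2.21 in Sham, -0.44, -0.15 and -0.89 in TBI, 0.23, 0.22 and 0.09 in TBI+Imipramine, -0.28, -0.17 and 0.25 in TBI+Prozac and 0.01, -0.79 and -1.96 in TBI+Zoloft. The lowest injured rat for Rrm2 was TBI+Zoloft replicate 3, which lay just above the higher Sham rat. Rrm2 differed from Sham by 2.33 ± 0.48 in TBI (adjusted p = 0.00658), 3.01 ± 0.48 in TBI+Imipramine (0.00125), 2.76 ± 0.48 in TBI+Prozac (0.004) and 1.91 ± 0.48 in TBI+Zoloft (0.0369). Both calls in TBI+Zoloft rested on single arrays: no member passed there without Sham replicate 1, TBI+Zoloft replicate 1 or TBI+Zoloft replicate 2, and 1 passed without any 1 of the TBI+Imipramine arrays.

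Tk1 (thymidine kinase) and Tyms (thymidylate synthase) supply thymidine nucleotides, and neither passed in TBI. Tk1 had levels of -3.23 and -2.47 in Sham, -1.47, -1.40 and -1.50 in TBI, -1.21, -1.11 and -1.01 in TBI+Imipramine, -1.19, -1.24 and -0.92 in TBI+Prozac and -1.18, -1.55 and -3.30 in TBI+Zoloft. Tyms had levels of -6.98 and -6.71 in Sham, -5.91, -5.75 and -5.88 in TBI, -5.45, -4.84 and -5.19 in TBI+Imipramine, -5.56, -5.55 and -5.21 in TBI+Prozac and -4.89, -6.12 and -7.05 in TBI+Zoloft. For Tk1 the 3 TBI rats lay above both Sham rats, with a difference of 1.40 ± 0.46 (adjusted p = 0.0571), and it passed in TBI+Imipramine (1.74 ± 0.46) and TBI+Prozac (1.73 ± 0.46). Tyms was above background on neither Sham array and rose at least 2.29-fold in TBI+Imipramine (adjusted p = 0.0164) and 1.89-fold in TBI+Prozac (0.0497). Those groups alone carried Tyms through the background filter, so these rises are a description.

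Among cyclins and Cdks, 5 of 8 tested members rose in TBI, 7 each in TBI+Imipramine and TBI+Prozac and none in TBI+Zoloft. Cdk1, the kinase of mitosis, had the largest difference of all 31 members. Its log2 levels were -5.86 and -3.81 in Sham, -1.59, -1.30 and -2.01 in TBI, -0.94, -0.95 and -1.09 in TBI+Imipramine, -1.52, -1.12 and -0.93 in TBI+Prozac and -1.52, -2.33 and -4.18 in TBI+Zoloft. The 3 TBI rats were far above both Sham rats, and TBI+Zoloft replicate 3 lay between the Sham rats. Cdk1 differed from Sham by 3.21 ± 0.66 in TBI (adjusted p = 0.00694), 3.84 ± 0.66 in TBI+Imipramine (0.00191), 3.65 ± 0.66 in TBI+Prozac (0.00492) and 2.16 ± 0.66 in TBI+Zoloft (0.0761). A linear fold of 9.22 corresponds to the difference in TBI.

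Cdk1's partners moved with it in the same groups. Ccna2, cyclin A, which serves S phase and mitotic entry, had levels of -6.01 and -5.02 in Sham, -3.04, -2.88 and -3.19 in TBI, -2.33, -2.28 and -2.33 in TBI+Imipramine, -2.92, -2.50 and -2.28 in TBI+Prozac and -2.94, -3.84 and -5.22 in TBI+Zoloft. Its difference in TBI was 2.48 ± 0.49 (adjusted p = 0.00569), and TBI+Zoloft replicate 3 was the lowest injured rat. Ccnb1, the main mitotic cyclin, read -6.15 and -6.31 in Sham, -3.70, -3.39 and -4.37 in TBI, -3.15, -3.31 and -3.28 in TBI+Imipramine, -3.67, -3.25 and -3.06 in TBI+Prozac and -3.95, -4.72 and -6.57 in TBI+Zoloft. With Sham below background, Ccnb1 rose at least 5.3-fold in TBI (adjusted p = 0.012), 7.9-fold in TBI+Imipramine and 7.46-fold in TBI+Prozac. Ccnb2, a second mitotic cyclin, read -8.45 and -8.56 in Sham, -5.89, -5.22 and -6.17 in TBI, -4.95, -4.87 and -5.13 in TBI+Imipramine, -5.65, -4.95 and -4.70 in TBI+Prozac and -5.95, -6.40 and -8.46 in TBI+Zoloft. The rise of Ccnb2 was at least 1.51-fold in TBI (adjusted p = 0.00715), where 1 of 3 arrays was above background, and at least 2.6-fold in TBI+Imipramine and 2.39-fold in TBI+Prozac, where all were. No TBI+Zoloft array was above background for Ccnb2. This gene passed the background filter through TBI+Imipramine and TBI+Prozac alone, and Ccna2 and Ccnb1 through injured groups alone. The differences of these 3 genes from Sham are therefore a description.

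Ccnd1, cyclin D1, which starts G1 in response to growth factors, read -3.83 and -2.81 in Sham, -1.94, -2.02 and -2.17 in TBI, -1.42, -1.36 and -1.84 in TBI+Imipramine, -1.58, -1.85 and -1.44 in TBI+Prozac and -2.32, -2.66 and -3.35 in TBI+Zoloft. It rose by 1.28 ± 0.32 in TBI (adjusted p = 0.0171), 1.78 ± 0.32 in TBI+Imipramine and 1.70 ± 0.32 in TBI+Prozac, while TBI+Zoloft replicate 3 lay between the Sham rats. Ccnd2, cyclin D2, the D cyclin known to be needed for adult hippocampal neurogenesis, read 0.49 and 0.72 in Sham, 0.50, 0.52 and 0.55 in TBI, 0.82, 0.39 and 0.49 in TBI+Imipramine, 1.0, 0.71 and 1.09 in TBI+Prozac and 0.26, 0.15 and 0.01 in TBI+Zoloft. Ccnd2 was the only tested member that passed against Sham in no group, with a difference in TBI of -0.09 ± 0.16 (adjusted p = 0.765) whose sign turned with normexp background correction and without Sham replicate 2. All 3 TBI+Zoloft rats lay below both Sham rats for Ccnd2, at a difference of -0.47 ± 0.16 that did not pass (adjusted p = 0.111).

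Cyclin E1 (Ccne1) and its kinase Cdk2 passed in TBI+Imipramine and TBI+Prozac and did not pass in TBI or TBI+Zoloft. Ccne1 read -1.65 and -2.18 in Sham, -1.73, -1.64 and -1.51 in TBI, -1.35, -1.31 and -1.41 in TBI+Imipramine, -1.44, -1.23 and -1.32 in TBI+Prozac and -1.36, -1.74 and -1.8 in TBI+Zoloft. Cdk2 read -4.07 and -3.69 in Sham, -3.55, -3.17 and -3.36 in TBI, -2.91, -3.00 and -3.11 in TBI+Imipramine, -3.19, -3.37 and -3.04 in TBI+Prozac and -3.10, -3.42 and -3.60 in TBI+Zoloft. In TBI the differences were 0.29 ± 0.18 for Ccne1 (adjusted p = 0.29) and 0.52 ± 0.18 for Cdk2 (adjusted p = 0.0719), and in TBI+Imipramine 0.56 ± 0.18 (0.0387) and 0.87 ± 0.18 (0.00562). For Cdk2 all 12 injured rats lay above both Sham rats.

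**Figure D3:**
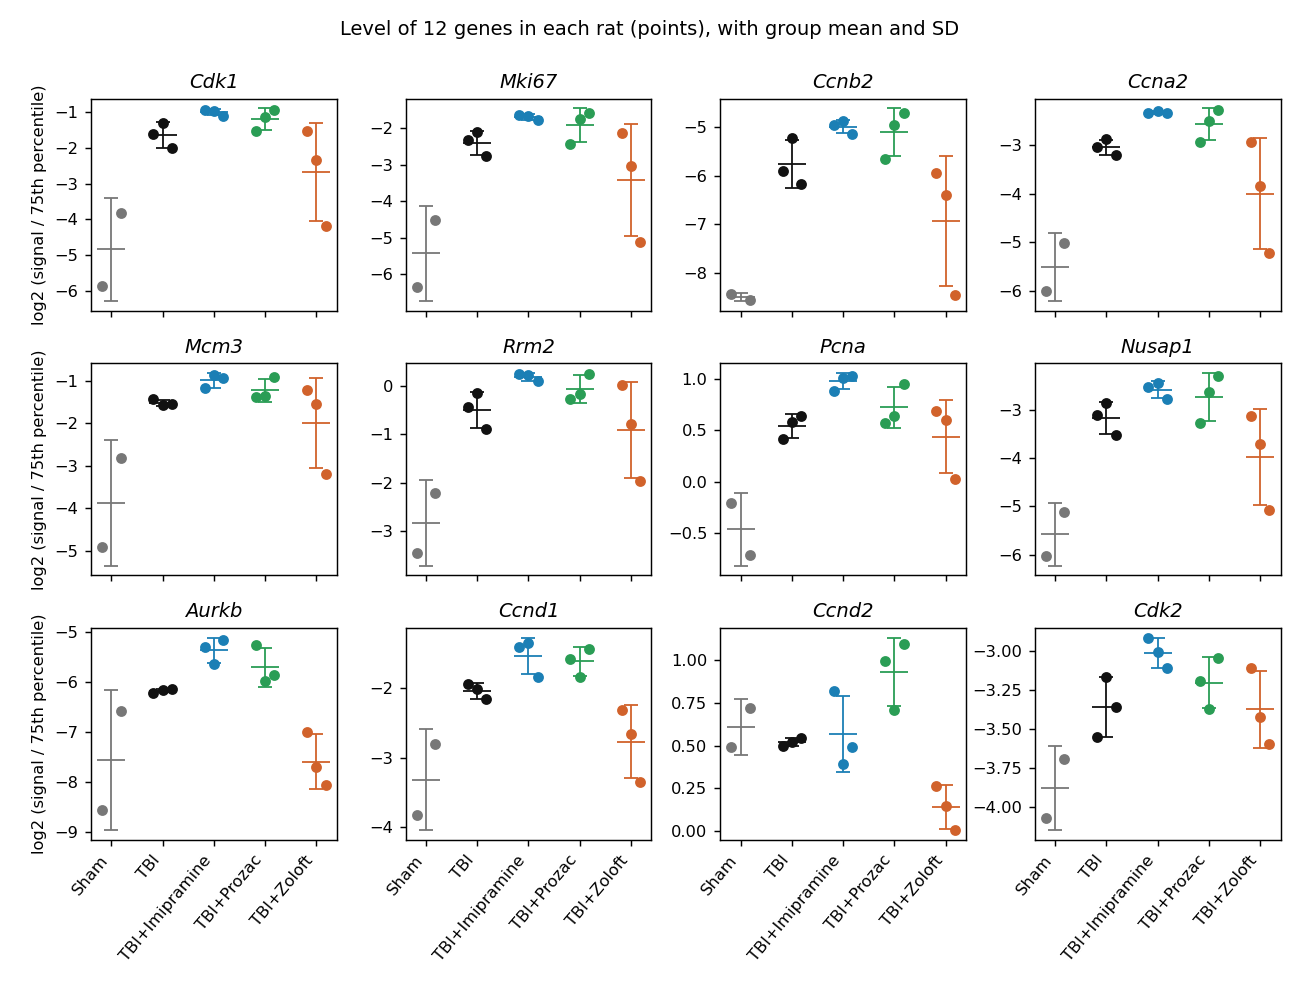
Log2 level (y axis, signal relative to the 75th percentile of probes above background) of 12 genes in each rat (points) by group (x axis), with the group mean (wide bar) and SD (whiskers). The y axes differ between genes and do not start at 0. Cdk1 runs from -5.86 and -3.81 in Sham to between -2.01 and -1.30 in TBI, and the 3 TBI+Zoloft rats spread from -1.52 to -4.18.

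Mitotic kinases and checkpoint genes passed in TBI for 3 of 6 tested members, in TBI+Imipramine and TBI+Prozac for all 6, and in TBI+Zoloft for none. Bub1, a kinase of the spindle checkpoint, read -5.38 and -4.58 in Sham, -3.57, -3.22 and -3.86 in TBI, -2.63, -2.96 and -3.07 in TBI+Imipramine, -3.43, -3.03 and -2.78 in TBI+Prozac and -3.14, -3.89 and -4.95 in TBI+Zoloft. Plk1, the Polo-like kinase that builds the spindle poles, read -4.77 and -4.38 in Sham, -3.41, -3.16 and -3.86 in TBI, -2.89, -3.10 and -3.25 in TBI+Imipramine, -3.37, -2.90 and -2.87 in TBI+Prozac and -3.43, -3.87 and -4.38 in TBI+Zoloft. Birc5 (survivin), part of the chromosomal passenger complex, read -4.84 and -4.43 in Sham, -3.72, -3.44 and -3.73 in TBI, -3.07, -3.25 and -3.19 in TBI+Imipramine, -3.45, -3.18 and -3.13 in TBI+Prozac and -3.39, -3.93 and -4.70 in TBI+Zoloft. These were the 3 that rose in TBI, by 1.43 ± 0.42 (adjusted p = 0.0379), 1.1 ± 0.28 (0.0201) and 1.0 ± 0.29 (0.0337), and in each the 3 TBI rats lay above both Sham rats.

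Aurka, Aurkb and Ttk did not pass in TBI. Aurka (Aurora A), which acts at the spindle poles, read -3.89 and -4.04 in Sham, -3.52, -3.34 and -3.78 in TBI, -2.98, -3.05 and -3.17 in TBI+Imipramine, -3.45, -3.11 and -3.05 in TBI+Prozac and -3.27, -3.45 and -3.60 in TBI+Zoloft. Its differences were 0.42 ± 0.17 in TBI (adjusted p = 0.116) and 0.90 ± 0.17 in TBI+Imipramine (0.00318), and all 12 injured rats lay above both Sham rats. Ttk, which starts the spindle checkpoint, read -4.88 and -4.81 in Sham, -3.69, -3.60 and -3.64 in TBI, -2.99, -2.88 and -2.94 in TBI+Imipramine, -3.68, -3.01 and -2.75 in TBI+Prozac and -3.35, -4.26 and -5.64 in TBI+Zoloft. In TBI+Imipramine it rose by 1.91 ± 0.47 (0.0129), while TBI+Zoloft replicate 3 was the lowest of all 14 rats. Aurkb (Aurora B), the kinase of the chromosomal passenger complex, read -8.55 and -6.58 in Sham, -6.22, -6.16 and -6.15 in TBI, -5.31, -5.65 and -5.16 in TBI+Imipramine, -5.26, -5.99 and -5.87 in TBI+Prozac and -7.00, -7.71 and -8.06 in TBI+Zoloft. No Sham and no TBI+Zoloft array was above background for Aurkb, which rose at least 1.98-fold in TBI+Imipramine (adjusted p = 0.00566) and 1.57-fold in TBI+Prozac (0.0201). Aurkb passed the background filter through these groups alone, so its differences from Sham there are a description.

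All 3 genes tied to the anaphase-promoting complex, the ubiquitin ligase that ends mitosis, rose in TBI, TBI+Imipramine and TBI+Prozac. Cdc20, its activator, read -5.06 and -4.65 in Sham, -3.45, -3.10 and -3.79 in TBI, -2.88, -2.83 and -3.17 in TBI+Imipramine, -3.38, -3.00 and -2.93 in TBI+Prozac and -3.53, -3.96 and -4.72 in TBI+Zoloft. Ube2c, its ubiquitin-conjugating enzyme, read -5.81 and -4.96 in Sham, -2.83, -2.45 and -3.77 in TBI, -1.95, -2.17 and -2.27 in TBI+Imipramine, -2.74, -2.29 and -2.34 in TBI+Prozac and -2.98, -3.30 and -4.75 in TBI+Zoloft. Cdca3, which is destroyed through the complex, read -5.86 and -4.40 in Sham, -2.62, -2.38 and -3.10 in TBI, -1.95, -2.11 and -1.92 in TBI+Imipramine, -2.90, -2.17 and -2.13 in TBI+Prozac and -2.58, -3.32 and -4.81 in TBI+Zoloft. In TBI they rose by 1.41 ± 0.31 (adjusted p = 0.00909), 2.37 ± 0.48 (0.0064) and 2.43 ± 0.55 (0.0112). For Ube2c all 12 injured rats lay above both Sham rats, and TBI+Zoloft differed from Sham by 1.70 ± 0.48 (adjusted p = 0.0584). For Cdc20 and Cdca3, TBI+Zoloft replicate 3 overlapped Sham.

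Spindle, chromosome and proliferation genes rose in TBI, TBI+Imipramine and TBI+Prozac for 5 of 5 tested members. Mki67, the gene of the Ki-67 antigen used to stain dividing cells, read -6.35 and -4.51 in Sham, -2.33, -2.10 and -2.77 in TBI, -1.62, -1.66 and -1.77 in TBI+Imipramine, -2.43, -1.73 and -1.57 in TBI+Prozac and -2.12, -3.04 and -5.11 in TBI+Zoloft. Its difference in TBI was 3.03 ± 0.70 (adjusted p = 0.0125) and in TBI+Zoloft 2.01 ± 0.70 (adjusted p = 0.113). For Mki67, TBI+Zoloft replicate 1 lay within the range of the other injured rats, replicate 2 below it, and replicate 3 between the Sham rats. Both other kept probes of Mki67 were higher in TBI, by 2.94 (adjusted p = 0.0195) and 2.06 (adjusted p = 0.0557). Nusap1, which binds spindle microtubules, read -6.04 and -5.12 in Sham, -3.10, -2.86 and -3.52 in TBI, -2.52, -2.43 and -2.77 in TBI+Imipramine, -3.26, -2.62 and -2.29 in TBI+Prozac and -3.13, -3.71 and -5.08 in TBI+Zoloft. It had the lowest adjusted p of all members in TBI (0.00558, difference 2.42 ± 0.48).

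The 2 kinesins of the group move spindle microtubules apart (Kif11) or act in cytokinesis (Kif20a). Kif11 read -6.08 and -4.85 in Sham, -3.46, -3.25 and -3.64 in TBI, -2.68, -2.67 and -2.85 in TBI+Imipramine, -3.32, -2.84 and -2.54 in TBI+Prozac and -3.02, -3.62 and -5.22 in TBI+Zoloft. Kif20a read -6.10 and -4.83 in Sham, -3.19, -2.94 and -3.65 in TBI, -2.75, -2.74 and -2.95 in TBI+Imipramine, -3.41, -2.88 and -2.76 in TBI+Prozac and -3.60, -4.16 and -5.62 in TBI+Zoloft. Prc1, which bundles microtubules at the spindle midzone, read -4.96 and -4.17 in Sham, -3.27, -2.92 and -3.43 in TBI, -2.57, -2.73 and -3.04 in TBI+Imipramine, -3.20, -2.86 and -2.69 in TBI+Prozac and -3.35, -3.77 and -4.29 in TBI+Zoloft. Differences in TBI were 2.01 ± 0.52 (adjusted p = 0.02), 2.21 ± 0.50 (0.0112) and 1.35 ± 0.30 (0.00948), and in all 3 genes TBI+Zoloft replicate 3 lay between the Sham rats.

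**Figure D4:**
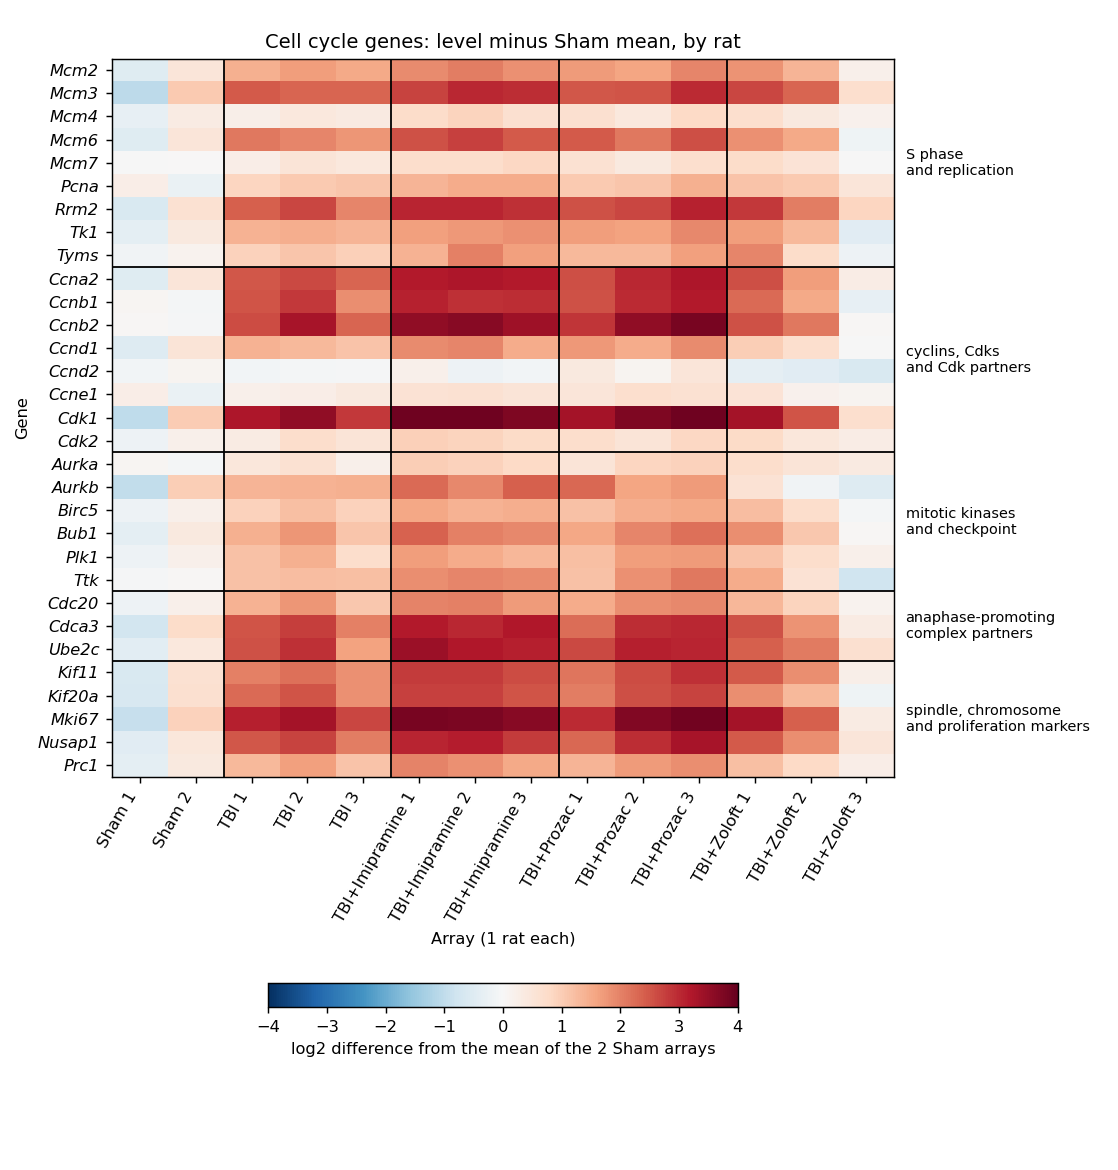
Log2 difference of each of the 14 arrays (columns) from the mean of the 2 Sham arrays, for the 31 tested genes (rows, grouped by role), on a colour scale from -4 to 4. TBI, TBI+Imipramine and TBI+Prozac columns are mostly red, and the TBI+Zoloft columns have medians of 1.79, 1.09 and 0.165.

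Against untreated TBI, no member passed in any drug group. In TBI+Imipramine 2.85% of all probes passed against TBI, and 0 of 31 members did (3 at an unadjusted p under 0.05, namely Mcm4, Pcna and Aurka, where 19.4% of all probes were higher at that threshold, and a lowest adjusted p of 0.114). Every member was higher in TBI+Imipramine than in TBI by group mean, with a median difference of 0.53 beside 0.20 for all probes, and in 26 of 31 all TBI+Imipramine rats lay above all TBI rats (25.2% of all probes). In TBI+Prozac 0.00577% of probes and 0 members passed (2 at an unadjusted p under 0.05, Ccnd2 and Aurka, where 9.86% of all probes were higher at that threshold), 8 did not overlap TBI (14.9% of all probes), and all 31 means were above TBI with a median of 0.41 beside 0.15 for all probes. Slide differed between these groups. Within the slide of the TBI arrays, TBI+Prozac replicate 1 lay a median of 0.14 above the TBI mean and higher for 26 of 31 members. With slide as a term in the fit the median was 0.14 for both drugs. That fit is not a separate result, since TBI+Prozac replicate 1 is the only array that links the TBI slide to the other drug arrays.

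In TBI+Zoloft 1.38% of all probes passed against TBI, and 0 of 31 members did (9 at an unadjusted p under 0.05, all lower, where 6.3% of all probes were lower at that threshold, and a lowest adjusted p of 0.117 for Aurkb). All 3 treated rats lay below all TBI rats for Ccnd1, Ccnd2 and Aurkb (6.77% of all probes). Group means lay below TBI for 28 members, with a median difference of -0.56 beside 0.01 for all probes (47.6% of probes lay below 0). The 3 Zoloft-treated rats were unlike each other. Their medians over the 31 members, as differences from the Sham mean, were 1.79 in replicate 1, 1.09 in replicate 2 and 0.165 in replicate 3, where TBI rats had 1.40, 1.68 and 1.35, TBI+Imipramine rats 1.99, 2.02 and 1.90, TBI+Prozac rats 1.69, 1.83 and 1.96, and Sham rats -0.39 and 0.39. Replicate 3 was below all 9 rats of the other injured groups for 30 of 31 members, replicate 2 for 22 and replicate 1 for 3. Left out of the fit, replicate 3 changed the comparison with Sham most: 21 of 31 members then rose (5.36% of probes passed in either direction), with a median difference of 1.47. Against TBI, 0 members passed also without that rat, and the median difference was then -0.16.

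Injury-response transcripts were read in the same rats. Timp1, an inhibitor of matrix proteases induced by injury, read -3.15 and -1.99 in Sham, 2.30, 2.54 and 2.60 in TBI, 2.80, 2.97 and 2.34 in TBI+Imipramine, 2.40, 1.68 and 2.37 in TBI+Prozac and 2.10, 1.95 and 3.04 in TBI+Zoloft. Hspb1, a small heat shock protein, read -2.48 and -0.86 in Sham, 2.77, 3.77 and 2.84 in TBI, 3.57, 3.32 and 3.28 in TBI+Imipramine, 3.38, 2.51 and 2.77 in TBI+Prozac and 2.73, 3.13 and 4.52 in TBI+Zoloft. Both were at their highest in TBI+Zoloft replicate 3. Serpina3n, Gfap, Vim and Cd44, also injury-response genes, lay above both Sham rats in that rat too, with log2 levels of 3.15, 1.84, -1.27 and 1.22. Of these, Gfap was the lowest of all 12 injured rats there, Vim lay below every TBI, TBI+Imipramine and TBI+Prozac rat, and Cd44 was the highest of all rats. These 6 genes were named after their values were seen. Csf1r, a receptor of microglia and macrophages, read -1.67, -1.64 and -2.36 in the 3 TBI+Zoloft rats against -2.02 and -1.81 in Sham, and the endothelial gene Pecam1 read -1.46, -1.17 and -0.19 against -2.38 and -2.05, so that replicate 3 was lowest of all rats for the former and highest for the latter. Their part in the result was not tested.

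The 3 drug groups were then compared with each other. Any difference among them passed for 3 of 31 members (3.18% of all probes), namely Aurkb (adjusted p = 0.0269), Ccnd2 (0.0345) and Ccnd1 (0.0476), and 21 of 31 had an unadjusted p under 0.05 (22.5% of all probes). In pairwise tests chosen after seeing this, TBI+Imipramine exceeded TBI+Zoloft for 6 members (5.25% of all probes), and 25 did not overlap (26.6%). The 6 were Ccnd1 (1.23 ± 0.28, adjusted p = 0.0328), Cdc20 (1.11 ± 0.27, 0.0398), Prc1 (1.02 ± 0.27, 0.0465), Ccna2 (1.68 ± 0.44, 0.0473), Ccnb2 (at least 2.26-fold, 0.0468) and Aurkb (at least 1.9-fold, 0.0189). TBI+Prozac exceeded TBI+Zoloft for 3 members (3.61% of all probes) and did not overlap it for 12 (21.2%). The 3 were Ccnd1 (1.15 ± 0.28, adjusted p = 0.0459), Ccnd2 (0.79 ± 0.15, 0.0206) and Aurkb (at least 1.51-fold, 0.0341). TBI+Imipramine and TBI+Prozac differed for 0 members (0.00577% of probes, 1 member at an unadjusted p under 0.05). Aurkb and Ccnb2 passed the background filter through TBI+Imipramine and TBI+Prozac alone, the groups where they are high, so their differences from TBI+Zoloft are a description. Among the 22 members above background on all arrays, 3 passed between imipramine and Zoloft (5.12% of the probes of that kind) and 2 between Prozac and Zoloft (3.75%). With no filter on dim probes, no member passed in the test among drugs or against Zoloft.

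The counts between drugs moved with single rats. Without TBI+Zoloft replicate 1, imipramine exceeded Zoloft for 21 members (6.99% of probes passed in either direction) and Prozac exceeded it for 15 (3.9%), with 11 members different among the drugs (2.67%). Leaving out TBI+Zoloft replicate 2, either of TBI+Imipramine replicates 1 and 2, or TBI+Prozac replicate 1 gave 0 members in the test among drugs, as did leaving out TBI+Zoloft replicate 3. Within the slide that held 8 of the 9 drug arrays, imipramine exceeded Zoloft for 1 member (1.29% of probes passed in either direction). It was Aurkb, whose difference is a description as above. No member passed the test among drugs there, where 0.0173% of probes passed. In the fit of all arrays, a second probe of Rrm2 passed the test among drugs (adjusted p = 0.0418) where the one used did not (0.241). For imipramine over Zoloft, a second probe of Ccna2 did not pass (1.40, adjusted p = 0.084) where the one used did. Second probes of Rrm2 (0.0294) and Mcm2 (0.0473) passed there where the ones used did not.

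Group means stood in a similar order for most members. Sham was lowest for 29 of 31 members and TBI+Imipramine highest of the 5 groups for 28. TBI+Zoloft was the lowest injured group for 28 and lay between Sham and TBI for 26. The place of TBI+Zoloft depended on single rats. Without TBI+Zoloft replicate 3, its median difference from TBI was -0.16. TBI+Zoloft replicate 1 had a median difference of 1.79 from the Sham mean, where the TBI rats had 1.40, 1.68 and 1.35. These counts are a description, since the tests of TBI against each drug passed for no member.

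Other genes of the cell cycle were taken from a list of 71, of which 57 passed the background filter. In TBI, 19 of the 57 rose and none fell (8.3% of all probes rose), with a median difference of 0.54. By role, 7 of 14 genes of origin licensing and firing rose, 4 of 13 of fork and repair synthesis, 2 of 6 of growth arrest, 2 of 5 of the pocket proteins and E2F factors, 2 of 5 G1 drivers, 1 of 5 G2/M drivers, 1 of 3 checkpoint genes and 0 of 6 Cdk inhibitors. Against Sham, 33 of 57 rose in TBI+Imipramine (19.8% of all probes), 26 in TBI+Prozac (11.7%) and 5 in TBI+Zoloft (4.16%). These counts include genes below background on 1 or both Sham arrays. Such genes passed the filter through injured groups alone, so their calls against Sham are a description. None passed against TBI in any drug group (2.85%, 0.00577% and 1.38% of all probes for imipramine, Prozac and Zoloft). An unadjusted p under 0.05 in either direction was reached by 21, 6 and 4 of 57. Of all probes, 19.4%, 9.86% and 8.91% were higher at that threshold, and 0.364%, 0.196% and 6.3% were lower.

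Gins2, part of the complex that activates the helicase, read -7.31 and -6.20 in Sham, -4.91, -4.59 and -4.61 in TBI, -4.45, -4.13 and -4.01 in TBI+Imipramine, -4.59, -4.72 and -4.53 in TBI+Prozac and -4.70, -4.88 and -6.03 in TBI+Zoloft. It rose by 2.05 ± 0.37 in TBI (adjusted p = 0.00342) and passed in all 4 injured groups. Gins1, of the same complex, rose by 1.83 ± 0.50 (0.0276), Cdc6, a licensing factor, by 1.55 ± 0.39 (0.0183), and Dbf4, the activator of the kinase that fires origins, at least 1.74-fold (0.0123). Pola1, a subunit of the polymerase that starts new strands, rose at least 1.69-fold (0.0113). Dbf4 and Pola1 were above background on neither Sham array and passed the filter through injured groups alone, so their rises are a description. Mybl2, a transcription factor of mitotic genes, rose by 1.65 ± 0.47 (0.0317). Orc1, a subunit of the origin recognition complex, was above background on neither Sham array and on 2 of 3 TBI arrays, at least 2.19-fold higher in TBI, and did not pass (adjusted p = 0.0611). Its partners Orc2 to Orc6 had differences in TBI between -0.28 and 0.03 and did not pass.

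Genes that halt the cycle did not move as 1 group. Gadd45a, a stress-induced growth arrest gene, read -3.39 and -3.18 in Sham, -1.26, -0.26 and -0.70 in TBI, -0.01, -0.24 and -0.66 in TBI+Imipramine, -0.24, -1.16 and -0.74 in TBI+Prozac and -1.39, -1.04 and -0.20 in TBI+Zoloft. It rose by 2.55 ± 0.38 in TBI (adjusted p = 0.00113) and in the 3 drug groups, and its relative Gadd45g rose by 1.88 ± 0.59 in TBI (0.0474). The Cdk inhibitor p21 (Cdkn1a) read 0.57 and 0.58 in Sham, -0.21, 0.14 and 0.13 in TBI, 0.47, 0.29 and 0.33 in TBI+Imipramine, 0.23, 0.22 and 0.29 in TBI+Prozac and 0.31, 0.48 and 1.07 in TBI+Zoloft. Its difference in TBI was -0.55 ± 0.20 (adjusted p = 0.0754), and TBI+Zoloft replicate 3 was the highest of all rats. Cdkn1b, the inhibitor p27, differed by -0.66 ± 0.32 in TBI (adjusted p = 0.188). Other Cdk inhibitors went the other way by group mean, from -5.11 in Sham to -4.39 in TBI for Cdkn2c. The means went from -1.85 to -1.36 for Cdkn1c and from -0.14 to 0.16 for Cdkn2d. Cdkn2a, a dim gene, went from -5.90 to -6.66. No Cdk inhibitor passed in TBI. In TBI+Zoloft replicate 3, Gadd45g and the growth factor response gene Myc were also at their highest of all rats, with log2 levels of 0.24 and -0.36.

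**Figure D5:**
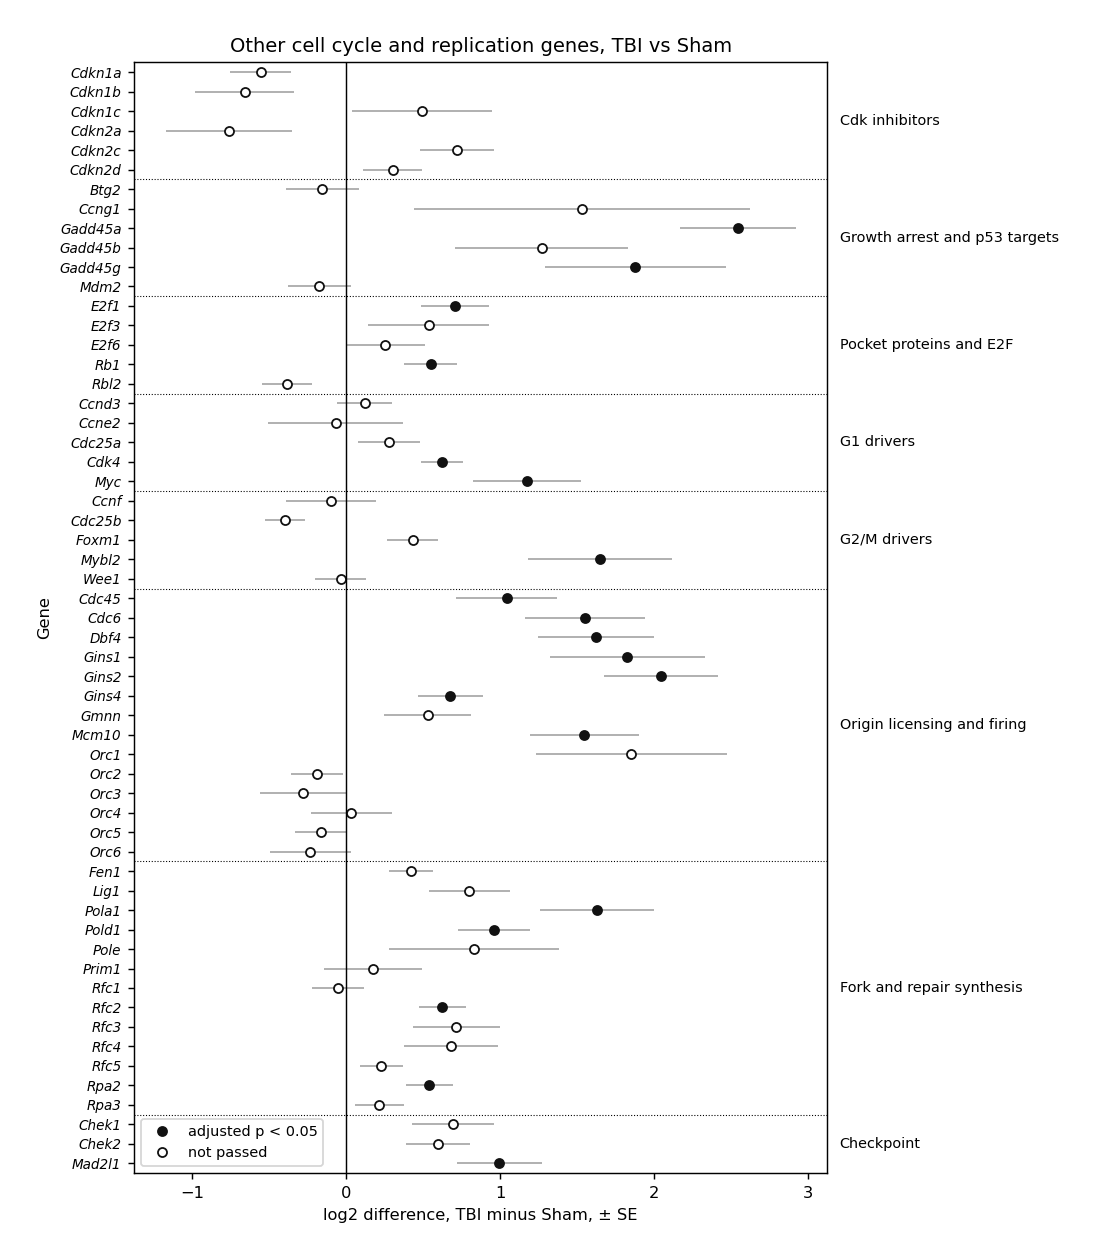
Log2 difference of TBI from Sham (x axis, points, with lines of 1 SE to each side) for the 57 tested genes of the wider list (y axis, grouped by role). Filled points passed at adjusted p under 0.05. The 19 filled points all lie above 0, and none of the 6 Cdk inhibitors is filled.

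Markers of the cell types that could carry these transcripts moved with injury too. Of a list of 37 markers, 29 were tested. In TBI the stem cell and reactive astrocyte gene Nes rose by 2.74 ± 0.23, the astrocyte gene Gfap by 1.88 ± 0.45, the microglia and macrophage genes Cd68 and Itgam by 1.67 ± 0.45 and 1.05 ± 0.28, the leukocyte genes Ptprc, S100a8 and S100a9 by 1.55 ± 0.39, 3.33 ± 0.72 and 4.0 ± 0.61, and the endothelial gene Cldn5 by 0.63 ± 0.15, while the synaptic gene Syt1 fell (difference -0.67 ± 0.19). The Syt1 probe was dim, with mean log2 levels of -4.85 in Sham and -5.52 in TBI and 2 of 3 TBI arrays above background. The brighter neuronal markers Snap25 and Neurod6 had means of 2.62 and 1.36 in Sham and 2.52 and 1.17 in TBI. None of the 4 oligodendrocyte precursor markers (Pdgfra, Cspg4, Olig1, Olig2) passed. The summed linear level of the 5 microglia and macrophage markers was 2.28 and 3.69 on the Sham arrays, 4.59 to 5.06 in TBI, 5.10 to 6.08 in TBI+Imipramine, 4.13 to 6.27 in TBI+Prozac and 3.72 to 4.95 in TBI+Zoloft. That of 4 leukocyte markers was 0.151 and 0.214 in Sham, 0.637 to 2.87 in TBI, 1.81 to 3.24 in TBI+Imipramine, 0.712 to 1.45 in TBI+Prozac and 1.51 to 2.47 in TBI+Zoloft. The 4 oligodendrocyte precursor markers summed to 5.43 and 5.68 in Sham, 4.27 to 5.85 in TBI, 4.99 to 5.97 in TBI+Imipramine, 5.29 to 5.92 in TBI+Prozac and 3.69 to 6.09 in TBI+Zoloft, where replicate 3 was the lowest of all arrays. The 2 tested choroid plexus markers, Ttr and Folr1, differed widely between rats of the same group. Their summed level was 0.586 and 29.2 in Sham, 0.662 to 28.5 in TBI and 1.77 to 105 in TBI+Imipramine. It was 0.196 to 87.5 in TBI+Prozac and 1.75 to 101 in TBI+Zoloft, where replicate 3 was the lowest of its group. The part of each cell type, or of choroid plexus in the tissue taken, in the rise of the cell cycle genes was not tested.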

How the data were processed

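Total RNA of whole hippocampus was hybridised by the authors to 1-colour Agilent rat gene expression arrays, 1 rat per array, and scanned with Feature Extraction 11.5.1.1 per the file headers. The deposited scanner files hold spot intensity (background-subtracted processed signal, and median signal and background for an alternative) with codes for control spots, outliers and spots above background. The deposited series table holds linear intensity values that were, on each array, within 5% of 1 constant times the scanner values for at least 99.8% of probes above background, and it served as an alternative. The series' miRNA arrays were not used here.

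Spots of a probe without an outlier flag were averaged, and a probe counted as above background where over 0.5 of its spots did. Signals were divided by the 75th percentile of probes above background on that array, as in the study's methods, and put on the log2 scale. Of 30367 probes, 17322 were kept because all arrays of at least 1 group were above background. Of these, 17251 had a value on every array. Symbols came from accessions through RefSeq (GRCr8), with 18643 probes matched and 11902 of them kept, and a gene was read from its brightest kept probe.

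A single limma fit (limma 3.58.1, R 4.3.3) held all 14 arrays with 5 groups and no covariate, with Benjamini-Hochberg adjustment over kept probes at 0.05, all tests 2-sided, and a moderated F test among the 3 drugs. The scripts were tested on simulated data. Groups came from the labels. Where no array of the dimmer group was above background, a fold is given as at least the brighter group's mean over the dim group's mean of, per array, the higher of the lowest signal among probes above background and the probe's own. The members, the wider cell cycle list and the marker list were chosen with earlier results of these data known. Values on every array were to be given for members that passed any test, for the largest differences and for Mki67 and Pcna, which came to 31 tested members. Of the wider list, the 8 largest differences that passed in TBI were named. Orc1 to Orc6, the Cdk inhibitors, Myc, Csf1r, Pecam1, Ttr and Folr1 were named after their values were seen. The pairwise tests between drugs were chosen after seeing the F test among drugs. Alternatives covered background correction, scaling, filter, probe choice, flagged spots, slide, replicate number, the methods' t-test and leaving out each array. The background alternative (normexp, offset 50) used the median spot signal in place of the mean signal.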

Additional observations from a re-analysis of the deposited data

Results flagged for a closer look

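A difference among the 3 drug groups passed for 3 of 31 members in the moderated F test of limma (3.18% of all probes). The adjusted p was 0.0269 for Aurkb, from 0.0211 to 0.568 over the alternatives. It was 0.0345 for Ccnd2, from 0.0220 to 0.138, and 0.0476 for Ccnd1, from 0.0287 to 0.168. In all 3 genes every TBI+Zoloft rat lay below every TBI+Imipramine and TBI+Prozac rat. Within the slide that held 8 of the 9 drug arrays, the adjusted p was 0.0808 for Aurkb, 0.133 for Ccnd2 and 0.109 for Ccnd1. Aurkb was above background on no TBI+Zoloft array and passed the background filter through the other 2 drug groups alone, so its difference is a description. With no filter on dim probes, no member passed.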

How the results depend on the processing

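Among single members, 2505 results kept direction and side of the threshold, 341 no longer passed, 27 passed newly and 4 reversed, none of which had passed. These were differences of TBI from Sham. Mcm4 went from 0.34 to -0.98 with the mean of its kept probes and -0.00754 with normexp. Ccnd2 went from -0.09 to 0.15 with normexp and, leaving out each array in turn, from -0.20 to 0.028, the latter without Sham replicate 2. Between drugs, the number of members passing (6 for imipramine over Zoloft, 3 for Prozac over Zoloft, 3 for any difference) was 2, 1 and 0 with normexp on the median signal. It was 0, 1 and 0 with quantile normalization, with the percentile over all probes and with the series-table values. It was 0, 0 and 0 without a filter on dim probes, where Zoloft against Sham gave 0, and 3, 0 and 1 with slide as a fixed block. Within the slide of most drug arrays it was 1, 0 and 0 (1.29%, 0.00577% and 0.0173% of all probes passed in either direction). With slide as a random block, Zoloft against Sham gave 6 members. The methods' t-test, unadjusted with a 1.2-fold limit, called 22, 5 and 2 members against TBI for imipramine, Prozac and Zoloft (14.1%, 6.31% and 8.12% of all probes). After Benjamini-Hochberg it called 1 for imipramine against TBI, and against Sham 0 for TBI, 8 for imipramine, 0 for Prozac and 0 for Zoloft.

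Leaving out each array in turn gave 2 to 24 members for TBI against Sham, 20 to 30 for imipramine, 7 to 30 for Prozac and 0 to 21 for Zoloft. Against TBI it gave 0 to 0 for imipramine and Prozac and 0 to 1 for Zoloft. It gave 0 to 21 for imipramine over Zoloft, 0 to 15 for Prozac over Zoloft, 0 to 0 between imipramine and Prozac, and 0 to 11 for any difference. With a group left at 1 array, that array was assumed to vary like the others. The replicate numbers did not pair the rats (26 pairs, r from -0.23 to 0.23), and with the replicate block the counts between drugs were 1, 0 and 0, with 21, 29, 25 and 2 against Sham for TBI, imipramine, Prozac and Zoloft. With slide as a fixed block, the median member difference from TBI was 0.14 for imipramine and Prozac and -0.76 for Zoloft. These 3 values rest on TBI+Prozac replicate 1, the only drug array on the slide of the TBI arrays. The cause of these changes was not tested. Genes below background in Sham have only a bound there.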
